A study of Mus musculus with 8 samples.

Results

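Cited2, its family members Cited1 and Cited4, and the acetyltransferase genes Ep300 (p300) and Crebbp (CBP) were followed in nuclear RNA of mouse embryonic stem cells with a conditional knockout of Mettl14 or Mettl3 and in their controls. The 5 genes were taken by name from 54446 genes in the count files. Cited2 was selected on its measured count in the Mettl14 libraries, far lower in the CKO than in the control, so that difference is given as a description without a test. The other 4 genes were added as its family and as the coactivators it binds. All 5 were among the 21782 genes that passed the filter on low counts.

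The 8 libraries came from C57BL/6 cells kept in serum with LIF, the GSK3 inhibitor CHIR99021 and the MEK inhibitor PD0325901, which hold such cells in the undifferentiated state. Each of 4 groups had 2 libraries, labelled as the Control and the CKO (conditional knockout) of Mettl14 and likewise of Mettl3. The nuclear fraction was isolated, ribosomal RNA was depleted, and total RNA was sequenced with a strand-preserving kit. The Cre or other agent, the exons deleted, the time after deletion, whether a line was 1 clone and whether feeder cells were present were not given in these sources. Nothing states that replicates were separate cultures, so the p-values measure the spread between libraries, which may be technical.

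CITED proteins are small nuclear proteins without a DNA-binding domain of their own. Their acidic C-terminus binds a cysteine- and histidine-rich domain that CBP and p300 share, and through it they help or hinder transcription factors. CITED2 is known for displacing the hypoxia factor HIF-1α from that domain and for assisting TFAP2 and SMAD factors, and it has been linked to the maintenance of mouse embryonic stem cells. CBP and p300 acetylate histones and other proteins at enhancers and promoters. METTL3 is the catalytic subunit and METTL14 the RNA-binding partner of the enzyme that places N6-methyladenosine (m6A) on RNA, and the title of the study assigns METTL14 a role at chromatin outside that reaction.

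Total counts ran from 17235889 to 20086128 per library. Levels are CPM, the counts of a gene relative to the library's size after scaling by TMM, a method that aligns the bulk of genes between libraries. The targeted genes followed their labels. Mettl14 RNA was 56.6 ± 2.34 CPM (SD, n = 2) in its control and 29.0 ± 1.72 in the Mettl14 CKO, and Mettl3 RNA was 37.0 ± 1.29 in its control and 19.2 ± 0.894 in the Mettl3 CKO. Mettl14 RNA was also low, at 28.4 ± 2.38 and 29.2 ± 0.606 CPM, in the Mettl3 control and CKO. The control groups themselves stood apart, with 67.8% of tested genes called between them (edgeR's quasi-likelihood test, Benjamini-Hochberg adjusted p under 0.05). All 8 embryonic stem cell markers were detected in every group. Their summed level was 2810 to 2830 CPM in the Mettl14 control, 1980 to 2000 in the Mettl14 CKO, 1070 to 1080 in the Mettl3 control and 1010 in both Mettl3 CKO libraries. Summed CPM of 21 fibroblast markers, Col1a1 among them, ran the other way, from 3970 to 3990, 5650 to 5670, 13400 to 13800 and 15400 to 15500 in the same order. The 13 primitive endoderm markers summed to 1140 to 1150, 1760 to 1800, 2490 to 2520 and 2710 to 2730 CPM. Among them Sparc, Col4a1 and Lamb1 had the highest average log2 CPM, at 10.25, 8.75 and 8.05. The transcription factor genes Gata4, Gata6, Sox17 and Sox7 averaged 1.62, 1.68, -0.22 and 0.072. The 12 trophectoderm markers summed to between 237 and 359 CPM and the 7 neuroectoderm markers to between 95.1 and 113 CPM in all groups, and only Neurog2 was at 0, in the Mettl14 control. Mitochondrial genes took 2.99 to 3.0% of counts in the Mettl14 control, 1.43% in the Mettl14 CKO, 1.06 to 1.12% in the Mettl3 control and 1.26 to 1.33% in the Mettl3 CKO. In such bulk RNA, fewer cells of a type and less RNA per cell cannot be told apart.

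Cited2 (ENSMUSG00000039910.10) lies on chromosome 10 of mm10 at 17723218 to 17725674 on the plus strand, and GENCODE exons cover 100% of that span. Its RefSeq promoter is shown because Cited2 differs most among the members, and the Cited4 promoter because Cited4 was the other CITED gene to rise in the Mettl3 CKO. The 250 bases before each start site (RefSeq, GRCm38.p6) are chr10:17722978-17723227 and chr4:120666313-120666562, both on the plus strand, printed 5′ to 3′. Capitals mark the hypoxia response element cores ACGTG and GCGTG and the cAMP response element core TGACG, each on either strand:

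Cited2: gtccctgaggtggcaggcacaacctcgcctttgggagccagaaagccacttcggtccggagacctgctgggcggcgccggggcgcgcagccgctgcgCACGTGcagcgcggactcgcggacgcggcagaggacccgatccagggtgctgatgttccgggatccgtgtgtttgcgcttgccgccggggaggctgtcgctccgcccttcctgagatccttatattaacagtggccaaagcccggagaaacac

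Cited4: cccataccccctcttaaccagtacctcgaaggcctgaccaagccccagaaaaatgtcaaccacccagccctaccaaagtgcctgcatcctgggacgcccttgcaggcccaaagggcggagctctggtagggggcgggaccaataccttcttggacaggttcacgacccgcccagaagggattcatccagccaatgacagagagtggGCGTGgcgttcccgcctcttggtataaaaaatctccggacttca

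The Cited2 window held ACGTG on both strands, overlapping as the palindrome CACGTG, with matches starting 153 and 152 bases before the start site. Motifs were searched on both strands from 250 bases before to 50 bases after each start site. Of 32851 RefSeq promoters of that length, 19.6% held ACGTG. The Cited4 window held 1 GCGTG, 44 bases before its start site, a motif found in 32.4% of promoters. Neither held TGACG, present in 20.8% of promoters, or the full cAMP response element TGACGTCA, present in 1.79%. Both held a TATAA, at 34 and 22 bases before the start, that of Cited2 on the opposite strand (TTATA as printed). On either strand, 24.9% of promoters held it. The GC box GGGCGG occurred 2 times in the Cited2 window and 3 times in that of Cited4, and in 35.7% of all promoters. CCAAT occurred 2 times in the Cited4 window, not in that of Cited2, and in 37.4% of all promoters. The Cited2 window was 66.8% G and C with 26 CG dinucleotides and that of Cited4 58.0% with 10, against medians of 52.4% and 6. These matches describe the letters only, and no binding was measured.

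The preferred core of the m6A enzyme, GGACT, occurred 4 times in the main Cited2 transcript, 2 in the 5′ untranslated region and 2 in the coding sequence. They are shown, with 10 flanking bases and the core in capitals, because the genes knocked out encode that enzyme. Positions are counted from the 5′ end of the transcript, 1979 bases long, whose coding sequence runs from 251 to 1060:

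Cited2 190 to 194: agccggtcctGGACTcgacgagccc

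Cited2 242 to 246: aaagacggaaGGACTggaaatggca

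Cited2 477 to 481: atggggccggGGACTgtgaacgggg

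Cited2 1018 to 1022: attttatgacGGACTtcgtgtgcaa

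The first pair of these sites lies in the 5′ untranslated region and the second pair in the coding sequence, where the last core starts 42 bases before the coding sequence ends. Cited2 had 2.02 such cores per kilobase, and 88.1% of 15810 protein-coding genes had fewer. The median was 1.05 per kilobase, and 90.9% of genes had at least 1. Cited4 carried 2 cores (1.6 per kilobase), Cited1 carried 1 (1.11), Ep300 carried 10 (1.05) and Crebbp 16 (1.48). Methylation itself was not measured in these files.

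Cited2 RNA stood highest in the Mettl14 control. In the Mettl14 CKO it was at the level of the Mettl3 control, and in the Mettl3 CKO above that. The Mettl14 control libraries held 61.6 and 54.6 CPM and the Mettl14 CKO libraries 13.6 and 12.1 CPM. The Mettl3 control libraries held 11.9 and 12.3 CPM and the Mettl3 CKO libraries 20.2 and 17.9 CPM. No library of a knockout overlapped its own control, with the Mettl14 CKO below its control and the Mettl3 CKO above. Group means were 58.1 ± 4.96, 12.8 ± 1.04, 12.1 ± 0.317 and 19.1 ± 1.65 CPM (SD, n = 2), in that order. The Mettl14 CKO and the Mettl3 control did not differ beyond their spread, and their order turned when libraries were scaled to total counts only, to 12.4 ± 0.991 and 13.8 ± 0.456 CPM.

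**Figure D1:**
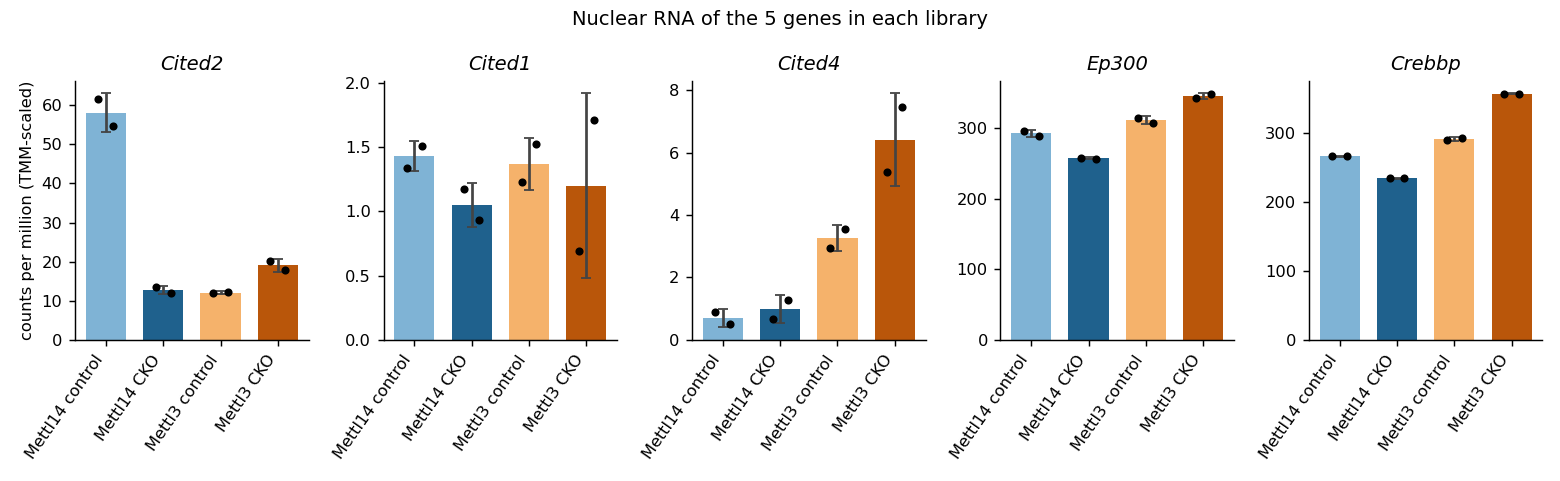
Levels of the 5 genes in CPM on TMM-scaled library sizes, with 1 point per library, bars at the group mean and error bars of 1 SD (n = 2). Cited2 sits at 54.6 to 61.6 CPM in the Mettl14 control and at or below 20.2 CPM elsewhere, Cited4 is low in the Mettl14 libraries, and Ep300 and Crebbp stay between 234 and 357 CPM, where the lower bars of the Mettl14 CKO against its control turn under scaling to total counts only.

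In the Mettl14 CKO, Cited2 was at 22.0% of its control, a log2 fold change of -2.18 ± 0.084 (SE). Among 12103 protein-coding genes whose log2 CPM averaged 1 or more, 1 had a lower fold change: Lars2, a mitochondrial leucyl-tRNA synthetase gene, at -4.36, named after its value was seen. This contrast chose Cited2, so no p is attached. Counts on ribosomal RNA genes, what is left after depletion, went from 0.0368 and 0.0422% of each library in the Mettl14 control to 0.00928 and 0.00947% in the CKO, and the part of this in the Cited2 difference was not tested. Of the other 4 genes, 2 were called in the Mettl14 CKO, where 40.4% of all tested genes were called, 18.0% higher and 22.4% lower. Leaving out Cited2, which these libraries chose, groups did not overlap for Cited1, Ep300 and Crebbp and overlapped for Cited4. Of all tested genes, 68.1% did not overlap.

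The Mettl3 libraries played no part in choosing Cited2, and there it rose. It reached 157% of its control in the Mettl3 CKO, a log2 fold change of 0.65 ± 0.097 (95% interval 0.46 to 0.84, adjusted p = 2.31e-08, edgeR's quasi-likelihood test). Both CKO libraries lay above both controls, and 132 of the 12103 protein-coding genes had a higher fold change. Of the 5 genes, 4 were called higher in the Mettl3 CKO, where 20.9% of tested genes were called, 15.1% higher and 5.78% lower. Among genes whose log2 CPM averaged 3 or more, a range that holds Cited2, Ep300 and Crebbp, 36.7% were called, 29.6% higher and 7.05% lower. Libraries of the Mettl3 groups did not overlap for 4 of the 5 genes and for 56.8% of all. The Cited2 rise was called in all 17 fits tried, with log2 fold changes from 0.54 to 0.78. Summed fibroblast markers, 13400 to 13800 CPM in the control and 15400 to 15500 in the CKO, the mitochondrial share and the ribosomal RNA gene share (0.0335 and 0.0275% in the control, 0.0413 and 0.0428% in the CKO) moved the same way as Cited2 here, and their part in its rise was not tested.

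**Figure D2:**
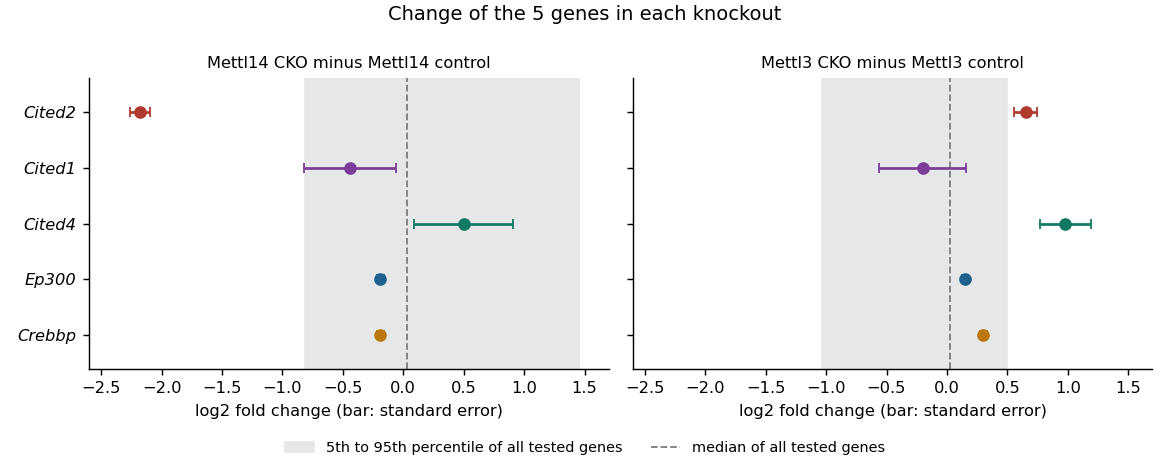
Log2 fold changes of the 5 genes in each knockout against its own control, with bars of 1 SE, over the range from the 5th to the 95th percentile of tested genes in grey and their median as a dashed line. Cited2 lies at -2.18 in the Mettl14 CKO and 0.65 in the Mettl3 CKO, while Ep300 and Crebbp lie within the grey range in both, at values that in the Mettl14 CKO become 0.018 and 0.02 under scaling to total counts only.

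Between the knockouts, the Cited2 changes differed by -2.84 ± 0.13 on the log2 scale, given without a test since it rests on the Mettl14 libraries. The knockout contrasts share no library. Of 403 genes called lower by 2-fold or more in the Mettl14 CKO, 48 were called higher in the Mettl3 CKO, which is 11.9% of the first set and 1.46% of the 3292 genes called higher in the second. Cited2 was among them. Against the Mettl3 control, the Mettl14 control held 4.79 times as much Cited2 RNA, a log2 difference of 2.26 ± 0.084, also without a test. That difference and the one in the Mettl14 CKO share the Mettl14 control libraries.

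**Figure D3:**
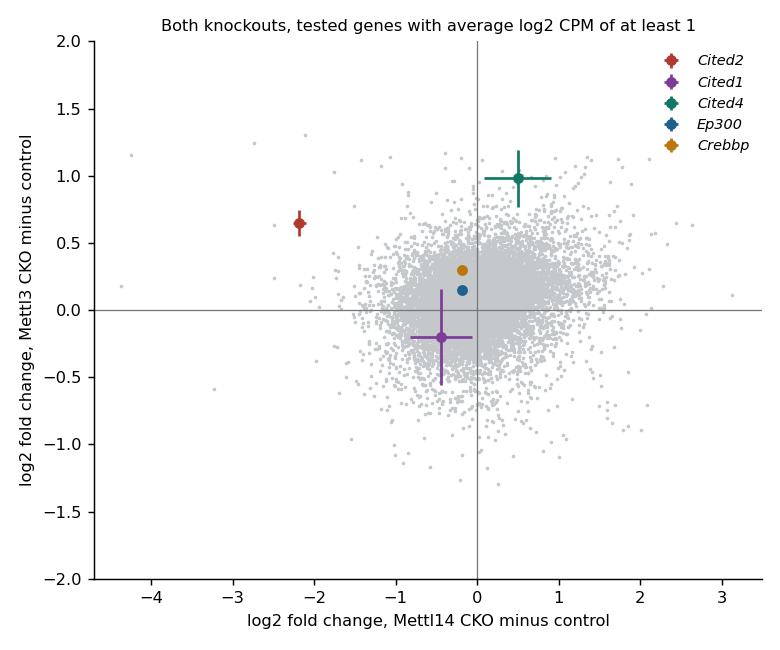
Log2 fold change in the Mettl14 CKO (x axis) against that in the Mettl3 CKO (y axis) for 14054 tested genes whose log2 CPM averaged 1 or more, not counting 11 more outside the axes, with the 5 genes coloured and bars of 1 SE. Cited2 sits at the upper left, at -2.18 and 0.65, apart from the cloud of genes, while Ep300 and Crebbp sit close to its middle.

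Among the CITED genes, Cited2 was the main one by RNA per kilobase of exon in all groups, but its share differed. It made up 94.5 ± 0.141% (SD, n = 2) of the summed CITED level per kilobase in the Mettl14 control, 79.0 ± 4.38% in the Mettl14 CKO, 59.5 ± 2.62% in the Mettl3 control and 57.5 ± 8.84% in the Mettl3 CKO. Cited4 made up most of the rest in the Mettl3 libraries. Its level per kilobase was 2.6 ± 0.335 and 5.14 ± 1.19 CPM in the Mettl3 control and CKO, where Cited2 stood at 4.93 ± 0.129 and 7.77 ± 0.67 CPM per kilobase.

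Cited4 (ENSMUSG00000070803.6, chromosome 4, 120666572 to 120667820, plus strand) is a gene of 1249 bases fully covered by exons. Its RNA rose to 198% of its control in the Mettl3 CKO. The Mettl3 control libraries held 2.95 and 3.54 CPM (60 and 70 counts) and the CKO libraries 5.37 and 7.46 CPM (101 and 140 counts). Both CKO libraries lay above both controls, with a log2 fold change of 0.98 ± 0.21 (95% interval 0.58 to 1.39, adjusted p = 8.17e-05, edgeR's quasi-likelihood test). Among the 12103 protein-coding genes, 19 had a higher fold change. In the Mettl14 libraries Cited4 was near the filter. The control libraries held 0.896 and 0.502 CPM (14 and 8 counts) and the CKO libraries 0.67 and 1.29 CPM (12 and 25 counts). These ranges overlapped, and the log2 fold change of 0.5 ± 0.41 (95% interval -0.31 to 1.32) did not pass the test (adjusted p = 0.358, edgeR). It was -0.071 without the second Mettl14 CKO library. The difference between the knockouts, -0.48 ± 0.48, was not called either (adjusted p = 0.474, edgeR), so an unlike response of Cited4 was not shown. Between controls Cited4 went against Cited2: it was at 21.7% of the Mettl3 control in the Mettl14 control (log2 difference -2.21 ± 0.32, adjusted p = 1.32e-09, edgeR).

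Cited1 (ENSMUSG00000051159.16, chromosome X, 102247381 to 102252181, minus strand) was barely expressed and was not called in any comparison. Counts per library ran from 13 to 32. Its CPM values were 1.34 and 1.51 in the Mettl14 control, 1.17 and 0.93 in the Mettl14 CKO, 1.23 and 1.52 in the Mettl3 control, and 0.691 and 1.71 in the Mettl3 CKO. The Mettl3 CKO libraries alone spanned more than the other groups did between them. Log2 fold changes were -0.44 ± 0.38 in the Mettl14 CKO (95% interval -1.19 to 0.3, adjusted p = 0.382) and -0.2 ± 0.36 in the Mettl3 CKO (-0.9 to 0.51, adjusted p = 0.761, both edgeR). The second became 0.35 without the first Mettl3 CKO library. The knockouts' changes differed by -0.25 ± 0.52 (adjusted p = 0.76) and the controls by 0.055 ± 0.36 (adjusted p = 0.901, both edgeR), a value that turned negative with upper-quartile scaling or scaling to total counts only.

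Ep300 (ENSMUSG00000055024.12, chromosome 15, 81585351 to 81652077, plus strand) and Crebbp (ENSMUSG00000022521.10, chromosome 16, 4081328 to 4213997, minus strand) were abundant, and their differences between groups were small on the TMM scale. Their genes are long, and exons cover 21.4% and 10.2% of their spans. In the Mettl14 control, Ep300 stood at 296 and 289 CPM, and in the Mettl14 CKO at 258 and 256 CPM. In the Mettl3 control it stood at 314 and 307 CPM, and in the Mettl3 CKO at 342 and 348 CPM. Each knockout thus left its own control's range, downward for Mettl14 and upward for Mettl3. Crebbp went with it, from 266 and 267 CPM to 235 and 234 in the Mettl14 pair of groups. In the Mettl3 pair it went from 289 and 292 CPM to 357 in both CKO libraries.

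In the Mettl14 CKO, Ep300 fell by 0.19 ± 0.03 on the log2 scale, to 87.8% of control (adjusted p = 3.96e-08, edgeR), but the value was 0.018 and uncalled with scaling to total counts only. Crebbp likewise fell by 0.19 ± 0.03, to 88.0% (adjusted p = 8.32e-08, edgeR), and was at 0.02 with that scaling. That scaling moved the median of all genes by 0.2 in this contrast, as far as either fall, and changed the split of calls from 44.6% to 71.8% higher. Both falls are relative to the bulk of genes, and the other Mettl14 CKO values given here move up by about that shift when libraries are scaled to totals. In the Mettl3 CKO, Crebbp rose to 123% (log2 fold change 0.3 ± 0.029, adjusted p = 1.27e-16, edgeR), with values from 0.18 to 0.4 over 17 fits, called in each. Ep300 rose to 111% (0.15 ± 0.028, adjusted p = 1.15e-05, edgeR), a call lost with upper-quartile scaling (0.038, adjusted p = 0.384) and with scaling to total counts only (0.066, adjusted p = 0.078). Upper-quartile scaling moved the median of all genes by -0.11 here, and the share of calls that were higher from 72.3% to 31.8%.

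The knockouts' changes differed for both coactivators. The difference, Mettl14 minus Mettl3, was -0.48 ± 0.042 for Crebbp (adjusted p = 3.58e-20, edgeR), and it was called in all 16 fits, from -0.59 to -0.19. For Ep300 it was -0.34 ± 0.041 (adjusted p = 4.33e-12, edgeR), and -0.048 and uncalled with scaling to total counts only. Of the 4 genes other than Cited2, 2 were called here, against 33.2% of all tested genes. Between controls, Crebbp was at 91.7% and Ep300 at 94.1% of the Mettl3 control in the Mettl14 control (adjusted p = 0.000117 and 0.00591, edgeR). Both turned positive without the filter on low counts, at 0.013 and 0.05. With scaling to total counts only, the controls were instead further apart. On that scale Ep300 stood at 244 ± 3.13 CPM in the Mettl14 control and 354 ± 3.63 in the Mettl3 control (SD, n = 2). Crebbp stood at 223 ± 2.11 and 331 ± 5.05 CPM. Without 1 library the Ep300 difference lay between -0.075 and -0.022 and the Crebbp difference between -0.11 and -0.062. The Ep300 call was lost in 7 of these fits and the Crebbp call in 3. Of the 4 genes tested between controls, 3 were called, against 67.8% of all, and libraries did not overlap for the same 3, against 83.4% of all.

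Per kilobase of merged exons, 13540 bases for Crebbp and 14273 for Ep300, the 2 coactivator genes were near parity. Their main transcripts are 10820 and 9566 bases long, and with those lengths the ratio of Crebbp to Ep300 would be lower. The ratio of Crebbp to Ep300 was 0.961 ± 0.0212 (SD, n = 2) in the Mettl14 control, 0.962 ± 0.00424 in its CKO, 0.984 ± 0.0226 in the Mettl3 control and 1.09 ± 0.0141 in its CKO. The ratio left the range of its control in the Mettl3 CKO alone. Such within-library ratios do not depend on scaling. Cited2 per kilobase was 1.16 ± 0.0778 times Ep300 in the Mettl14 control and 0.29 ± 0.0212 times in the Mettl14 CKO. It was 0.227 ± 0.0099 times Ep300 in the Mettl3 control and 0.322 ± 0.0318 times in the Mettl3 CKO. Cited2 thus stood level with p300 RNA in the Mettl14 control libraries and well below it in the other 6. Nuclear RNA holds unspliced transcripts, so levels per exon length need not be those of mature mRNA.

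The tested genes nearest to Cited2 on the chromosome were not called in either knockout. Among genes that passed the filter on low counts, these are the noncoding Gm47761, 399990 bases before it, and Gm20655, 64848 bases after it. Untested genes may lie closer, but no gene in the count files overlaps it. Gm47761 had log2 fold changes of 0.31 ± 0.3 in the Mettl14 CKO and -0.45 ± 0.27 in the Mettl3 CKO (adjusted p = 0.438 and 0.249, edgeR). Gm20655 had 0.32 ± 0.52 and -0.64 ± 0.52 (adjusted p = 0.673 and 0.426, edgeR). L3mbtl2, a Polycomb-related gene 11812 bases beyond Ep300, fell by 0.35 in the Mettl14 CKO (adjusted p = 4.95e-13, edgeR). It stood at 0.023 in the Mettl3 CKO (adjusted p = 0.757, edgeR). On the other side, 323 bases from Ep300, 1110025M09Rik had -0.11 and 0.14 (adjusted p = 0.894 and 0.874, edgeR). The small RNA genes Gm23880 and Gm22067 lie inside Ep300 on the same strand, the first with 0 counts and the second with at most 43. Gm37186, inside Crebbp on its strand, fell by 0.32 ± 0.1 in the Mettl14 CKO (adjusted p = 0.0079, edgeR), and reads of the pair may be split by the counting. Adcy9, 73532 bases from Crebbp, rose by 0.29 ± 0.079 in the Mettl3 CKO (adjusted p = 0.0028, edgeR). Its value in the Mettl14 CKO was 0.07 (adjusted p = 0.599, edgeR). Trap1, only 3501 bases from Crebbp, went against it in both, at 0.08 in the Mettl14 CKO and -0.052 in the Mettl3 CKO (adjusted p = 0.0457 and 0.32, edgeR).

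Genes were ranked by how close their profile was to that of each member. Likeness was the Euclidean distance between log2 CPM values centred on each gene's mean over 8 libraries, among 11777 protein-coding genes. The 5 nearest were Chchd10 (distance 0.7), a mitochondrial cristae protein gene, Vegfb (0.71), a growth factor gene, Arpp19 (0.81), a phosphatase inhibitor gene, mt-Cytb (0.9), encoded in the mitochondrial genome, and Taf3 (0.92), a TFIID subunit gene. All were high in the Mettl14 control, with log2 fold changes in the Mettl14 CKO of -1.99, -1.71, -1.67, -1.46 and -1.38 in that order, and the choice by profile fixes that direction. Their values in the Mettl3 CKO were 0.096, 0.4, 0.077, 0.47 and 0.31. None of the 5 reached the Cited2 values of -2.18 and 0.65 in either knockout. For Cited4 the nearest were Cacna1g (0.86), Dtx4 (0.91) and Adra2a (0.99). For Ep300 they were Tead1 (0.084), Atg2b (0.089) and Tcf12 (0.091), and for Crebbp they were Clip1 (0.061), Gspt2 (0.066) and Arfrp1 (0.12).

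**Figure D4:**
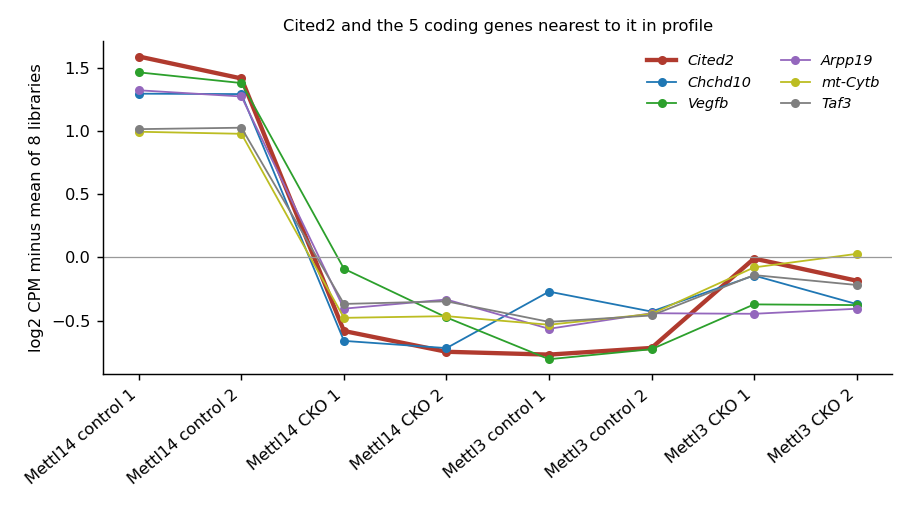
Log2 CPM of Cited2 and the 5 protein-coding genes nearest to it in profile, each minus its mean over 8 libraries (y axis), by library (x axis). All 6 lines are highest in the Mettl14 control libraries, and Cited2 spans the widest range.

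Since Cited2 is fully exonic, other such genes are given beside it. Of 244 protein-coding genes whose exons cover 90 to 100% of their span and whose log2 CPM averaged 3 or more, Cited2 included, the median log2 fold change was -0.08 in the Mettl14 CKO and 0.15 in the Mettl3 CKO. Of them, 4 were higher than Cited2 in the Mettl3 CKO.

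The transcription factors that CITED proteins assist were mostly not called in either knockout, as were most tested genes. Of all tested genes, 40.4% were called in the Mettl14 CKO and 20.9% in the Mettl3 CKO. Of 15 such factors, 14 were tested, 2 rose and 3 fell in the Mettl14 CKO, and 9 were not called. The median log2 fold change was 0.47 against 0.034 for all genes, but 0.17 without the second Mettl14 control library and 0.18 without the first Mettl14 CKO library, and several genes near it have few counts, such as Egr2 at 0.55 ± 1.0 (adjusted p = 0.71, edgeR), named after its value was seen. After loss of Mettl3, 2 rose and none fell, with a median of 0.041 against 0.026, which was -0.071 with upper-quartile scaling, -0.043 with scaling to total counts only and 0.046 to 0.18 with 1 library left out. Tfap2a, whose product needs CITED2 as a coactivator in the embryo, fell by 1.71 ± 0.19 in the Mettl14 CKO (adjusted p = 1.64e-14) and had a value of 0.29 ± 0.15 in the Mettl3 CKO (adjusted p = 0.159, both edgeR). Smad4, the shared SMAD partner, fell by 0.56 ± 0.062 in the Mettl14 CKO (adjusted p = 4.09e-14, edgeR). Smad3 rose in both knockouts, by 0.53 ± 0.11 and 0.38 ± 0.084 (adjusted p = 2.68e-05 and 0.000181, edgeR).

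Of the genes that work beside CBP and p300 on acetylated chromatin, most were lower in the Mettl14 CKO on the TMM scale. Of 15 other lysine acetyltransferases, 11 fell and none rose there, with a median of -0.19, which became 0.011 with scaling to total counts only. Kat6a and Kat6b, catalytic subunits of a histone H3 acetyltransferase complex, fell by 0.7 ± 0.032 and 0.61 ± 0.026, and Hat1, which acetylates new histone H4, by 0.68 ± 0.031 (adjusted p = 1.15e-43, 5.65e-46 and 8.29e-44, edgeR). After loss of Mettl3, 7 rose and 1 fell, with a median of 0.079 that was -0.034 with upper-quartile scaling, -0.006 with scaling to total counts only and 0.1 to 0.14 with 1 library left out. Of 24 bromodomain proteins, readers of acetylated lysine, 20 fell and none rose in the Mettl14 CKO, with a median of -0.36. Bptf, a subunit of the NURF remodeller, fell by 0.78 ± 0.027 there and rose by 0.23 ± 0.028 in the Mettl3 CKO (adjusted p = 3.75e-56 and 6.97e-12, edgeR). The bromodomain median in the Mettl3 CKO was -0.004, with 8 up and 3 down, and positive whenever 1 library was left out. Among genes whose log2 CPM averaged 3 or more, 66.6% were called in the Mettl14 CKO, 40.9% lower. In the Mettl3 CKO 29.6% of them were called higher and 7.05% lower. The difference of these lists from those shares was not tested.

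Deacetylases and their corepressors, which remove the acetyl groups, were mixed. Of 21, 5 rose and 8 fell in the Mettl14 CKO, with a median of -0.068 that was 0.14 with scaling to total counts only and -0.17 to -0.014 with 1 library left out. After loss of Mettl3, 5 rose and 3 fell, with a median of 0.086 that was -0.027 with upper-quartile scaling and 0.085 to 0.15 with 1 library left out. Hdac1 fell in both, by 0.66 ± 0.03 and 0.21 ± 0.036 (adjusted p = 4.86e-44 and 1.27e-06, edgeR). Of all tested genes, 18.0% were called higher and 22.4% lower in the Mettl14 CKO, and 15.1% and 5.78% in the Mettl3 CKO.

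The hypoxia pathway, on which CITED2 acts as a brake, held called genes in both directions in the Mettl14 CKO. So did all tested genes, with 18.0% called higher and 22.4% lower. In the Mettl3 CKO more of the pathway's genes were called higher than lower, with as many or more not called. All tested genes leaned the same way there, with 15.1% called higher and 5.78% lower. Upper-quartile scaling took the share of all calls that were higher from 72.3% to 31.8%. The difference of the pathway from all genes was not tested. Of 26 tested HIF target genes of 28, 10 rose and 9 fell in the Mettl14 CKO, with a median of 0.073. Of these genes 12 rose, 1 fell and 13 were not called in the Mettl3 CKO, where 29.6% of genes whose log2 CPM averaged 3 or more were called higher. Their median was 0.11, or -0.002 with upper-quartile scaling and 0.2 without the first Mettl3 CKO library. The Mettl14 CKO median ran from 0.078 to 0.16 with 1 library left out. Slc2a1, a glucose transporter gene, rose in both, by 0.61 ± 0.029 and 0.31 ± 0.028 (adjusted p = 7.5e-42 and 2.34e-18, edgeR). P4ha1, a collagen prolyl hydroxylase gene, rose by 0.83 ± 0.042 in the Mettl14 CKO (adjusted p = 7.48e-39, edgeR), where summed fibroblast markers went from 3970 to 3990 CPM up to 5650 to 5670 CPM, a part that was not tested. Of 10 HIF pathway regulators, 6 fell and 1 rose in the Mettl14 CKO (median -0.22, or -0.14 without the first Mettl14 CKO library). After loss of Mettl3, 4 rose, none fell and 6 were not called (median 0.16). Epas1, which encodes HIF-2α, fell by 0.8 ± 0.05 and Hif1a by 0.26 ± 0.032 in the Mettl14 CKO (adjusted p = 4.6e-31 and 1.73e-12, edgeR). Both stood at 0.014 in the Mettl3 CKO (adjusted p = 0.886 and 0.821, edgeR). The oxygen sensor gene Egln1 rose by 0.34 ± 0.078 and Hif1an, whose product blocks HIF from binding CBP and p300, by 0.25 ± 0.054 in the Mettl3 CKO (adjusted p = 0.000374 and 0.000168, edgeR).

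CREB factors, from which CBP takes its name, and their targets were also mixed. Of 10 CREB and CRTC genes, 2 rose and 3 fell in the Mettl14 CKO, with a median of -0.015 that was 0.03 with upper-quartile scaling, 0.19 with scaling to total counts only and -0.058 to 0.013 with 1 library left out. In the Mettl3 CKO 4 rose and none fell, with a median of 0.083, or -0.03 and -0.002 with those scalings and 0.098 to 0.16 with 1 library left out. Creb3 rose by 0.62 ± 0.062 and Atf1 fell by 0.59 ± 0.072 in the Mettl14 CKO (adjusted p = 7.31e-17 and 2.96e-12, edgeR). Of 16 tested CREB targets of 17, 6 rose and 4 fell in the Mettl14 CKO, with a median of 0.24, or -0.047 without the first Mettl14 control library and 0.47 without the second. In the Mettl3 CKO 5 rose and 3 fell, with a median of -0.078, or -0.048 without the first Mettl3 CKO library and -0.19 without the second. Dusp1, a MAP kinase phosphatase gene, rose in both knockouts, by 0.93 ± 0.058 and 0.32 ± 0.047 (adjusted p = 7.09e-31 and 1.39e-08, edgeR). Among all tested genes, 18.0% were called higher and 22.4% lower in the Mettl14 CKO, and 15.1% and 5.78% in the Mettl3 CKO.

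Other transcription factors that dock on CBP or p300 went both ways. Of 28 tested of 30, 8 rose and 10 fell in the Mettl14 CKO, with a median of -0.032 that was 0.012 with upper-quartile scaling, 0.17 with scaling to total counts only and -0.063 to 0.012 with 1 library left out. The Mettl3 CKO had 14 that rose and 4 that fell, with a median of 0.12. Srebf1 and Srebf2, regulators of lipid synthesis, rose by 0.97 ± 0.05 and 0.32 ± 0.039 in the Mettl14 CKO (adjusted p = 4e-38 and 2.77e-12, edgeR). They rose by 0.24 ± 0.045 and 0.53 ± 0.037 in the Mettl3 CKO (adjusted p = 1.05e-05 and 9.44e-26, edgeR). Tcf3 fell by 0.82 ± 0.049 in the Mettl14 CKO (adjusted p = 9.58e-33, edgeR). Myb fell in both, by 0.43 ± 0.094 in the Mettl14 CKO and 0.7 ± 0.095 in the Mettl3 CKO (adjusted p = 4.89e-05 and 1.01e-09, edgeR). Where log2 CPM averaged 3 or more, 25.7% of genes were called higher and 40.9% lower in the Mettl14 CKO. The shares in the Mettl3 CKO were 29.6% and 7.05%, and the difference of this list from them was not tested.

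Of 16 pluripotency factors, 13 fell and none rose in the Mettl14 CKO, with a median of -0.45. In the Mettl3 CKO 3 rose and 6 fell, with a median of -0.005 that was positive whenever 1 library was left out. Of all tested genes, 18.0% were called higher and 22.4% lower in the Mettl14 CKO, and 15.1% and 5.78% in the Mettl3 CKO. Where log2 CPM averaged 3 or more, these were 25.7% and 40.9%, and 29.6% and 7.05%. The difference of this list and the marker lists below from such shares was not tested. Pou5f1 fell by 1.22 ± 0.03 in the Mettl14 CKO and rose by 0.39 ± 0.039 in the Mettl3 CKO (adjusted p = 1.64e-73 and 2.46e-15, edgeR). Cited2 had the same directions, as did 997 (20.4%) of the 4880 genes called lower in the Mettl14 CKO. Klf4 fell by 1.45 ± 0.042 in the Mettl14 CKO (adjusted p = 1.38e-64, edgeR). In the Mettl3 CKO Klf4 was not called, at 0.054 ± 0.044 (adjusted p = 0.431, edgeR). Nanog fell in both, by 0.43 ± 0.037 in the Mettl14 CKO and 0.36 ± 0.042 in the Mettl3 CKO (adjusted p = 1.07e-20 and 1.49e-12, edgeR). All 8 embryonic stem cell markers fell in the Mettl14 CKO (median -0.51), and 15 of 20 tested fibroblast markers rose (median 0.82). In the Mettl3 CKO 1 stem cell marker rose and 4 fell (median -0.087, or -0.064 to -0.046 with 1 library left out), and 9 fibroblast markers rose and 2 fell (median 0.15). Of 12 tested primitive endoderm markers 4 rose (Lamb1, Col4a1, Sparc and Hnf4a) and none fell in the Mettl14 CKO. In the Mettl3 CKO 3 of them rose and 1 fell, and Gata4, Gata6, Sox17 and Sox7 were called in neither knockout. Of 11 trophectoderm markers 2 rose and 4 fell in the Mettl14 CKO, and 4 rose and none fell in the Mettl3 CKO. Of 6 neuroectoderm markers 1 rose and 1 fell in the Mettl14 CKO, and none rose and 1 fell in the Mettl3 CKO. The part of these markers in the Cited2 difference of the Mettl14 libraries was not tested.

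**Figure D5:**
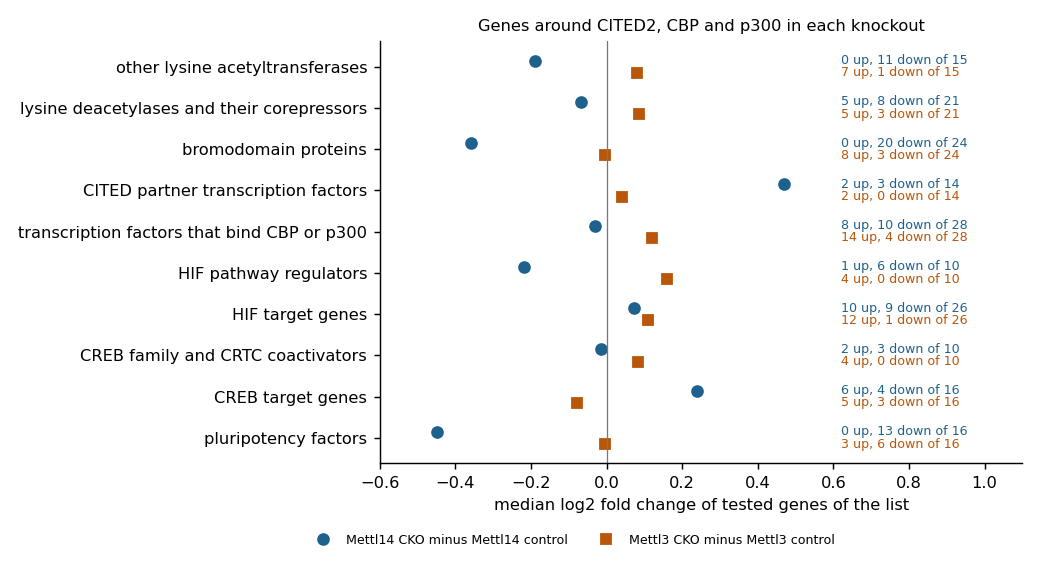
Median log2 fold change of the tested genes of 10 lists (x axis) in the Mettl14 CKO (circles) and the Mettl3 CKO (squares), each against its own control, with counts of genes called higher and lower at the right. Bromodomain proteins (-0.36) and pluripotency factors (-0.45) are lowest in the Mettl14 CKO, and Mettl3 CKO medians lie between -0.078 and 0.16, a range in which several change sign with the scaling.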

How the data were processed

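Nuclear RNA-seq libraries of 4 groups with 2 libraries each were analysed from the gene counts that the authors deposited, whole numbers per Ensembl gene in 1 file per library. The submitters' processing notes name HTSeq, HISAT2 2.1.0, Trimmomatic 0.38 and CASAVA, and the build mm10. Annotation release, strand setting and handling of multi-mapping reads were not given in these sources. GENCODE M21 matched 54409 of 54446 genes by identifier, 37 stayed without a name, and no line was without a gene.

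Counts were tested with edgeR 4.0.16 in R 4.3.3 (TMM scaling, filterByExpr at a minimum count of 10, robust quasi-likelihood fit of 4 group means over 8 libraries, 4 residual degrees of freedom, common dispersion 0.000571), with Benjamini-Hochberg adjustment over 21782 genes and a threshold of 0.05. The SE is the size of the log2 fold change divided by the square root of F, and intervals are 1.96 SE to either side. Profiles were centred log2 CPM with a pseudocount of 0.1. limma 3.58.1, DESeq2 1.42.0, other scalings, no filter, a replicate block and leaving out each library were alternatives. Scaling to total counts only was added after the data were seen. The fitting was tested on simulated data. Replicates differed by more than sampling noise (chi-square over its degrees of freedom 1.43 to 2.08), and none was a copy.

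The members and the 15 gene lists were chosen with earlier results of these data known. Genes named were the members, the 5 nearest profiles to Cited2 and 3 nearest to each other member with average log2 CPM of at least 1, neighbouring and overlapping genes, and up to 2 genes per list with the smallest p in either knockout. Promoters came from the RefSeq table (GRCm38.p6), in which all 5 members matched. Motifs were counted on both strands.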

Additional observations from a re-analysis of the deposited data

Results flagged for a closer look

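The Cited2 changes in the 2 knockouts went in opposite directions in every library: both Mettl14 CKO libraries lay below their controls and both Mettl3 CKO libraries above theirs. The difference of the changes was -2.84 on the log2 scale and was not tested, since Cited2 was chosen on the Mettl14 libraries.

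The changes of Ep300 and Crebbp also differed between the knockouts, by -0.34 and -0.48 (interaction term, edgeR's quasi-likelihood test, adjusted p = 4.33e-12 and 3.58e-20). All 4 knockout libraries lay outside their control's range for both genes on the TMM scale. With scaling to total counts only, the Ep300 difference was -0.048 and not called.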

How the results depend on the processing

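In the Mettl3 CKO, Cited2 was called higher in every alternative, at 0.54 to 0.78 (adjusted p from 5.36e-14 to 6.79e-05, edgeR, limma or DESeq2). Where the Mettl14 libraries that chose it enter, its values are a description only: -2.26 to -1.98 in the Mettl14 CKO, -2.96 to -2.55 for the difference and 1.81 to 2.4 between controls. With scaling to total counts only, 6775 genes were called higher and 2667 lower in the Mettl14 CKO (main 3921 and 4880), 1657 and 2299 in the Mettl3 CKO (main 3292 and 1260), 6268 and 1822 for the difference (main 2777 and 4461), and 4019 and 12028 between controls (main 7329 and 7430). With that scaling, Ep300 and Crebbp in the Mettl14 CKO were 0.018 and 0.02, Ep300 in the Mettl3 CKO 0.066 and in the difference -0.048, and Cited1 was 0.042 in the difference and -0.4 between controls. It moved the median of all genes by 0.2, -0.084, 0.29 and -0.45 in the 4 contrasts. Upper-quartile scaling called 1293 genes higher and 2771 lower in the Mettl3 CKO and 4287 and 2788 for the difference, put Ep300 at 0.038 in the Mettl3 CKO and Cited1 at -0.16 between controls, and moved the median by -0.11 (Mettl3 CKO), 0.16 (difference) and -0.22 (controls). It turned the share of calls that were higher from 38.4% to 60.6% for the difference and from 49.7% to 37.4% between controls, and scaling to total counts only made these 77.5% and 25.0%. Without the filter, 5814 genes were higher and 559 lower in the Mettl3 CKO, and Ep300 and Crebbp were 0.05 and 0.013 between controls. DESeq2 called 2476 genes higher in the Mettl14 CKO, 1624 higher and 542 lower in the Mettl3 CKO and 1238 higher for the difference, and put Ep300 at -0.07 between controls. It gave no adjusted p for Cited1 and Cited4 in the Mettl3 CKO or for Cited1 in the difference. The cause of these shifts was not tested.

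With 1 library left out in turn, where the lone library of a group is taken to vary like the others, genes called lower in the Mettl3 CKO ran from 599 to 1070. Cited4 in the Mettl14 CKO ran from -0.071 to 0.96, and Cited1 from -0.94 to 0.35 in the Mettl3 CKO, from -0.79 to 0.5 for the difference and from -0.062 to 0.24 between controls. Ep300 ran from -0.075 to -0.022 between controls, with the call lost in 7 of the 8 fits, and Crebbp from -0.11 to -0.062, with the call lost without either Mettl14 control library or the second Mettl14 CKO library.

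Same-numbered libraries did not deviate together (r from -0.015 to 0.073), so the numbers do not pair them. With a replicate block the Mettl14 CKO had 3937 genes higher and 4898 lower and the Mettl3 CKO 3354 and 1266, Cited2 stood at -2.18 and 0.65, and no call of a tested member changed. Counts of 8 to 140 per library limit what can be seen of Cited1 and Cited4.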
